A study of Mus musculus with 107 samples.

Results

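The genes described are 7 matrix metalloproteinases, Mmp2, Mmp3, Mmp8, Mmp9, Mmp12, Mmp13 and Mmp14, and 3 of their tissue inhibitors, Timp1, Timp2 and Timp3. They were chosen by name and make up 10 of the 50686 genes of the expression table. Matrix metalloproteinases are zinc-dependent enzymes that cut proteins of the extracellular matrix and also release or inactivate growth factors and cytokines. Most are secreted as inactive precursors that other proteases cut into the active form, and Timp proteins bind the active enzymes and block them. In tumors they are known for the breakdown of basement membrane around new vessels and invading cells, and fibroblasts, macrophages and neutrophils make them as well as cancer cells.

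The study sequenced RNA of subcutaneous tumors from 12 syngeneic models, in each of which a mouse cell line grows in immunocompetent hosts. Base tumors (n = 35) were treatment-naïve and collected at about 100 mm3, NT tumors (n = 36) grew on without treatment until day 8, and LEN tumors (n = 36) were collected on day 8 after 7 daily oral doses of lenvatinib (LEN) at 10 mg/kg. LEN is an inhibitor of several receptor tyrosine kinases, among them the VEGF and FGF receptors. Each group of a model held 3 tumors, except for Base tumors of MC38 with 2. All mice were 7 weeks old at implantation and carried tumors in the right flank. BNL 1ME A.7R.1 (liver), RAG and Renca (kidney), 4T1 and EMT6 (breast) and CT26.WT (colon) grew in BALB/cAnNCrlCrlj mice. MC38 (colon) and B16-F10 (melanoma) grew in C57BL/6NCrl mice, LL/2 (lung) in C57BL/6JCrl, MBT2 (bladder) in C3H/HeNCrl, KLN205 (squamous lung) in DBA/2NCrl and Hepa 1-6 (liver) in C57L/J. Hosts were male for BNL 1ME A.7R.1 and Hepa 1-6 and female for the others, and the RAG cells had been adapted to growth in mice. The labels name no engineered allele, and each model is a single cell line.

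Every tumor was nearest in expression to another tumor of its own model. Melanocyte markers summed to between 8877 and 10379 TPM (relative transcript abundance scaled by length) in B16-F10 tumors. Hepatocyte markers summed to between 2953 and 4233 TPM in Hepa 1-6 tumors, but to between 1.79 and 41.1 TPM in BNL 1ME A.7R.1 tumors, although both are liver models. Genes that code for protein took between 27.5% and 66.6% of a tumor's TPM, and the lowest share was in LEN tumor 4 of 4T1. All tumors are bulk tissue, so fewer cells of a type and less RNA per cell cannot be told apart. TPM keeps no sequencing depth, so the counting error of a single value is unknown. Replicates are tumors that share a cell line, and p-values measure the spread between them.

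Among the proteases, Mmp14, which is anchored in the cell membrane and activates the precursor of Mmp2, had the highest mean level (132.8 TPM over all tumors). The mean was 73.5 TPM for the macrophage elastase Mmp12, 47.9 for the gelatinase Mmp2, 31.6 for the collagenase Mmp13, 30.5 for the stromelysin Mmp3 and 29.6 for the gelatinase Mmp9. Models with high values weigh on these means, and their order is not that of a typical model. By the median of the 12 model means in Base tumors, Mmp14 had 114.5 TPM, Mmp12 38.2, Mmp2 28.9, Mmp9 15.0, Mmp3 11.2 and Mmp13 8.67 TPM. Mmp8, the collagenase of neutrophils, averaged 0.513 TPM and did not exceed 1.65 TPM in any tumor. Of the inhibitors, Timp2 averaged 162.5 TPM, Timp1 92.6 TPM and Timp3, which stays bound to the matrix, 17.1 TPM. No member was listed at 0 in any tumor. TPM is scaled by transcript length, so these levels can be set beside each other.

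On mouse build GRCm38, 4 of the proteases lie on chromosome 9 in the order Mmp13 (chr9:7272514-7283331), Mmp12 (chr9:7344381-7369499), Mmp3 (chr9:7445822-7455975) and Mmp8 (chr9:7558456-7568485), all on the forward strand. They belong to a cluster of Mmp genes, and the 9 protein-coding ones matched by name span 427 kb. Mmp2 lies at chr8:92827291-92853420, Mmp9 at chr2:164940780-164955850 and Mmp14 at chr14:54431612-54445364. The inhibitors are unlinked, with Timp1 at chrX:20870166-20874735, Timp2 at chr11:118301069-118355740 and Timp3 at chr10:86300372-86349506. Each position is that of a whole protein-coding gene, exons and introns included. Mmp12, Timp1 and Timp3 overlap an antisense gene (Mmp1b, Syn1 and Syn3) and Timp2 overlaps Cep295nl on its own strand. Those 4 neighbors averaged between 0.149 and 7.97 TPM, and whether counting used the strand is not given in the sources used here, so reads in the shared stretches cannot be assigned with certainty.

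In Base tumors the level of each gene depended on the model. All 9 members that could be tested differed between the 12 models, as did 93.6% of all genes tested, so the test does not set these genes apart (limma F test with Benjamini-Hochberg adjustment, largest adjusted p = 6.5e-10 for Mmp3). Mmp8 was under the minimum mean of 1 TPM. The spread of the model means was widest for Mmp12, from 4.38 TPM in MC38 to 685 TPM in Hepa 1-6. It was narrowest for Timp2, from 70.5 TPM in BNL 1ME A.7R.1 to 278 TPM in Renca, leaving Mmp8 aside. By group means, Mmp14 led the proteases in 10 of the 12 models, and Mmp12 led in RAG and Hepa 1-6. The lead is not clear in every model. In RAG, Mmp12 had 26.15, 61.7 and 71.6 TPM and Mmp14 had 42, 45.8 and 46.0 TPM, which overlap. Timp2 led the inhibitors in 10 models, and Timp1 led in CT26.WT and MC38.

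**Figure D1:**
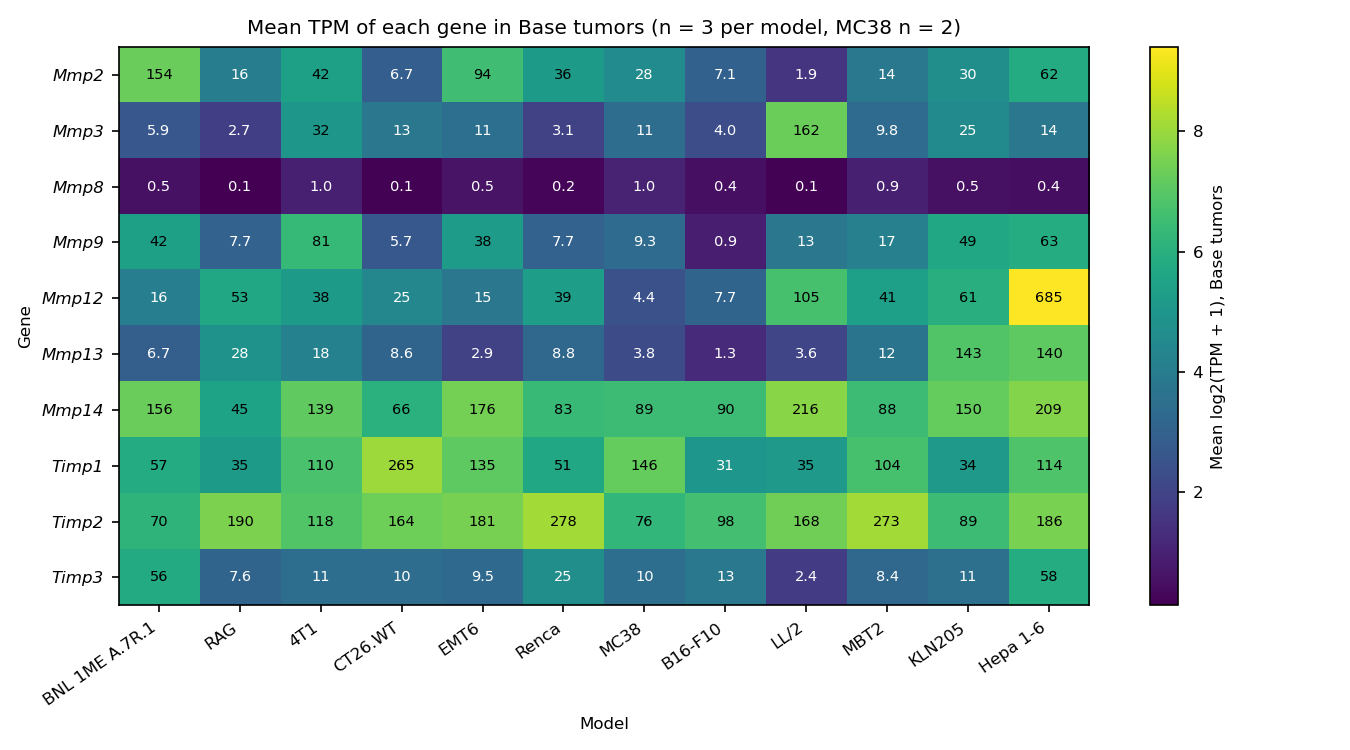
Mean TPM of the 10 genes (rows) in Base tumors of 12 models (columns, n = 3 tumors each, n = 2 for MC38); the number in a cell is the mean TPM and the color the mean log2(TPM + 1). Mmp12 stands out in Hepa 1-6 (685 TPM), Mmp3 in LL/2 (162 TPM) and Mmp13 in KLN205 and Hepa 1-6, while Mmp14 and Timp2 are above 40 TPM in every model.

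The gelatinases cut denatured collagen and the type IV collagen of basement membranes. Mmp2 was highest in BNL 1ME A.7R.1, where the 3 Base tumors had 145, 158 and 159 TPM, and EMT6 followed with 87.4, 94.7 and 99.8 TPM. It was lowest in LL/2 with 1.09, 1.82 and 2.84 TPM. These 3 models did not overlap with each other, but 8 of the 11 neighboring pairs in the order of the models did. Mmp9 was highest in 4T1, where Base tumors had 61.8, 76.8 and 105 TPM. In Hepa 1-6 they had 30.4, 65.2 and 92.9 TPM, within reach of 4T1, and in B16-F10 0.68, 0.90 and 0.98 TPM. For Mmp9, 7 of 11 neighboring pairs overlapped.

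Mmp3 cuts many matrix proteins and activates other precursors of the family. In LL/2 Base tumors it reached 118, 151 and 217 TPM, above every Base tumor of the other models, which ranged up to 43.6 TPM in KLN205. LL/2 was the one model set apart, since 10 of the 11 neighboring pairs in the order overlapped. Mmp12, which degrades elastin, had 556, 674 and 825 TPM in Hepa 1-6, far from the next model LL/2 with 77.2, 98.3 and 140 TPM. Mmp13, which cuts fibrillar collagen, had 105, 128 and 186 TPM in Hepa 1-6 and 51.4, 129 and 250 TPM in KLN205. The KLN205 tumors span those of Hepa 1-6, and both models were above RAG, the third, with 22.1, 29.6 and 31.8 TPM. In B16-F10, Mmp13 was between 0.95 and 1.61 TPM.

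Mmp14 kept a narrow range, from 44.6 ± 2.26 TPM in RAG (SD, n = 3) to 216 ± 15.2 TPM in LL/2. Timp1 was highest in CT26.WT with 242, 265 and 287 TPM and lowest in B16-F10 with 28.1, 30.8 and 33.7 TPM. The B16-F10 tumors overlapped with those of KLN205, LL/2 and RAG, so the bottom of that order is not resolved. Timp2 was highest in Renca (262, 280 and 293 TPM) and MBT2 (267, 273 and 280 TPM), which overlapped. Timp3 was highest in Hepa 1-6 (49.6, 61.7 and 63.5 TPM) and BNL 1ME A.7R.1 (47.3, 49.6 and 70.1 TPM), the liver models, and lowest in LL/2 (2.01, 2.29 and 2.75 TPM).

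The sum of the 7 proteases divided by the sum of the 3 inhibitors gives their balance at the level of RNA. In Base tumors its mean ranged from 0.284 in CT26.WT to 3.35 in KLN205. It was above 1 in 6 models, namely KLN205, Hepa 1-6, LL/2, BNL 1ME A.7R.1, 4T1 and EMT6. The ratio mixes genes with different partners and says nothing of active enzyme.

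The genes whose means over the 36 groups were most like each member were found among 17428 genes with a mean of at least 1 TPM. The groups share models, so 36 means are fewer than 36 independent points, and the correlations are descriptions. Mmp2 was most like Lox (Pearson r = 0.94), Loxl1 (0.91) and Col1a1 (0.89), which encode collagen-crosslinking enzymes and a chain of type I collagen. Among the genes most like Mmp9 were 5730559C18Rik (0.89) and the collagen prolyl hydroxylase P4ha3 (0.87). Mmp3 was most like Btbd11 (0.84), Plcb3 (0.82) and Lrig1 (0.82), and Mmp12 was most like coagulation factor F10 (0.77), Pilrb2 (0.76) and the arginine transporter Slc7a2 (0.76). For Mmp13 the nearest genes were Hs3st3b1 (0.88), Arrdc4 (0.86) and Ptprf (0.86), and for Mmp14 they were Chd3 (0.88), Ust (0.88) and Stx5a (0.88). Among the genes most like Timp1 were Greb1l (0.87) and the uridine phosphorylase Upp1 (0.85). Timp2 was most like Mtmr12 (0.82), Ttc33 (0.79) and Tmem167b (0.78), and Timp3 was most like the sphingosine phosphate receptor S1pr3 (0.87), Tbc1d2b (0.86) and Gria3 (0.85).

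Within groups, where differences between models and treatments are removed, each member was compared with fibroblast markers. Over the deviations of all tumors from their group means, the correlation with the mean of 12 fibroblast markers was 0.82 for Mmp2, 0.72 for Mmp14, 0.68 for Mmp3, 0.68 for Timp3 and 0.58 for Timp1. It was 0.44 for Timp2, 0.39 for Mmp13, 0.34 for Mmp9, 0.30 for Mmp8 and 0.28 for Mmp12. Among the members themselves it was 0.68 for Mmp12 with Mmp13, 0.62 for Mmp2 with Mmp14 and 0.61 for Mmp14 with Timp2. With the 10 neutrophil markers the correlation was 0.57 for Mmp8 and 0.44 for Mmp12. Tumors of a group share their model and arm, and all values share the TPM scale of their library. How many of all genes reach such correlations was not computed, so these values do not set the members apart.

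**Figure D2:**
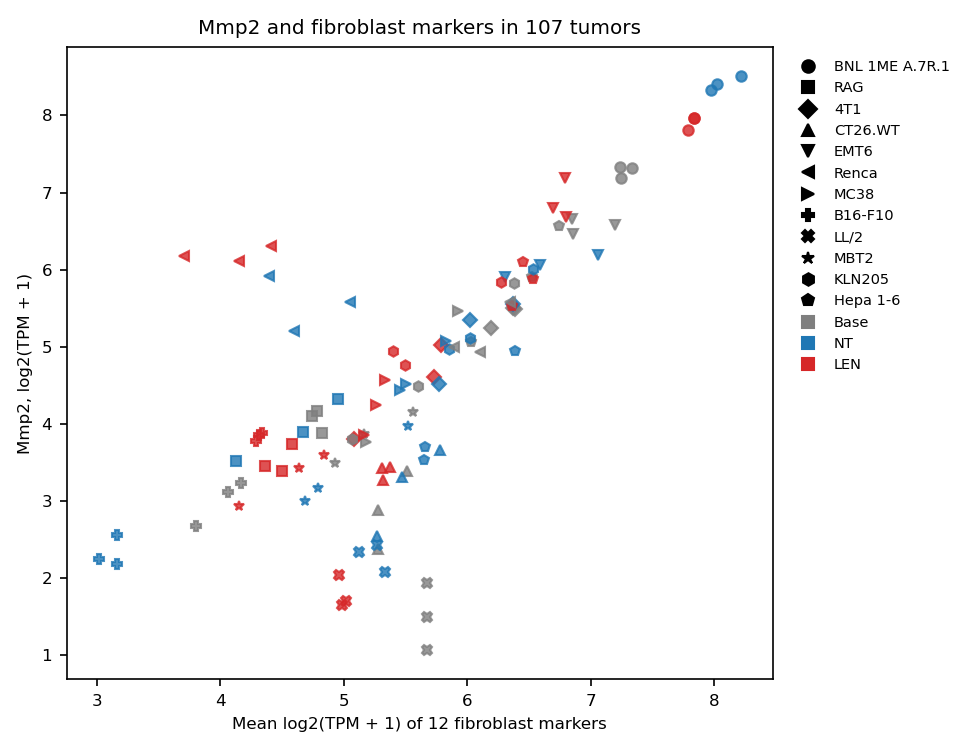
Mmp2 (y axis, log2(TPM + 1)) against the mean log2(TPM + 1) of 12 fibroblast markers (x axis) in all tumors; the marker shape gives the model and the color the group. At a like marker level, Mmp2 is lower in LL/2 and CT26.WT than in MC38 and KLN205, and the NT and LEN tumors of Renca lie above those of RAG.

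Mmp2 and fibroblast markers moved apart in Renca. Its fibroblast markers summed to 2437 TPM in Base, 820 TPM in NT and 642 TPM in LEN tumors (means of 3), while the mean of Mmp2 was 35.8, 47.5 and 72.5 TPM. LL/2 had a fibroblast marker sum of 3232 TPM in Base tumors with a mean Mmp2 of 1.92 TPM. Col1a1, Col1a2 and Col3a1 are in the fibroblast list and also in the list of matrix substrates given further on.

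Comparing LEN with NT tumors addresses which genes change when the drug is given. Averaged over the 12 models, LEN tumors had higher Mmp12, Mmp3 and Timp1, and no member was lower. Changes are given as log2(TPM + 1), where those of low genes appear too small. Mmp12 rose by 0.81 ± 0.12 (SE, n = 36 against 36 tumors; adjusted p = 2.6e-07). Mmp3 rose by 0.61 ± 0.11 (adjusted p = 1.7e-05) and Timp1 by 0.47 ± 0.07 (adjusted p = 1.3e-07). These were 3 of 9 members tested, where 13.7% of all 17351 genes were called higher and 9.87% lower by the same limma fit with Benjamini-Hochberg adjustment. The median change over all genes was -0.002.

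The members that did not pass were Mmp2 (0.19 ± 0.09, adjusted p = 0.13), Mmp9 (0.11 ± 0.11, adjusted p = 0.53), Mmp13 (-0.04 ± 0.09, adjusted p = 0.83) and Mmp14 (-0.06 ± 0.04, adjusted p = 0.32). Timp2 (0.05 ± 0.05, adjusted p = 0.48) and Timp3 (-0.06 ± 0.08, adjusted p = 0.66) did not pass either. With values rescaled to the upper quartile of each tumor, Mmp14 was called lower (-0.08, adjusted p = 0.038), beside 18.3% of all genes under that rescaling. Mmp2 was called higher without 4T1 (0.26, adjusted p = 0.018), without MC38 (0.24, adjusted p = 0.048) or without NT tumor 4 of Hepa 1-6 (0.22, adjusted p = 0.042). Without LEN tumor 4 of 4T1, the one with the lowest protein-coding share, Mmp12 rose by 0.86, Mmp3 by 0.65 and Timp1 by 0.50, and no other member passed. Mmp8 passed when the minimum of 1 TPM was dropped (0.19, adjusted p = 0.015), at levels between 0.03 and 1.65 TPM, and with values rescaled over protein-coding genes (0.28, adjusted p = 0.0042), where its LEN effect also differed between models (adjusted p = 0.0415).

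**Figure D3:**
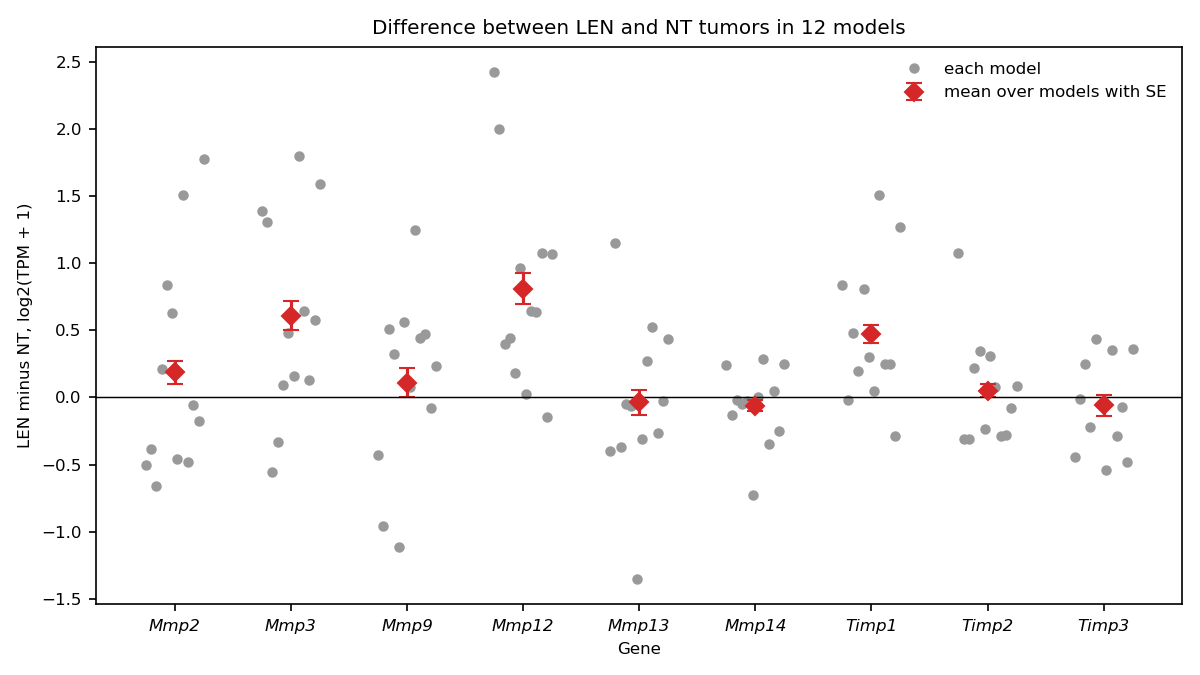
Difference between LEN and NT tumors (y axis, log2(TPM + 1)) for 9 genes (x axis); each grey point is 1 of 12 models and each red diamond the mean over models with its SE. The means of Mmp3, Mmp12 and Timp1 lie at 0.61, 0.81 and 0.47, while points of Mmp2 and Mmp13 lie on both sides of 0.

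Mmp12 had a higher mean in LEN than in NT tumors in 11 of 12 models, and in 6 of them every LEN tumor was above every NT tumor. Over all genes and models, 13.5% of gene-model pairs had every LEN tumor above every NT tumor and 10.9% every one below. In BNL 1ME A.7R.1, Mmp12 was 3.56, 5.64 and 8.38 TPM in NT and 26.8, 33.8 and 44.1 TPM in LEN tumors. In RAG it was 16.4, 48.9 and 84.4 TPM in NT and 149, 159 and 195 TPM in LEN tumors. In Hepa 1-6, the model with the most Mmp12, it was 154, 181 and 244 TPM in NT and 315, 382 and 526 TPM in LEN tumors. The groups do not overlap in these 3 models, nor in Renca, LL/2 and B16-F10. KLN205 was the exception in direction, with 58.3, 63.5 and 67.6 TPM in NT and 50.5, 58.7 and 62.5 TPM in LEN tumors, which overlap.

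Mmp3 had a higher mean in LEN tumors in 10 of 12 models, and all LEN tumors were above all NT tumors in 5, BNL 1ME A.7R.1, Renca, B16-F10, LL/2 and Hepa 1-6. In LL/2 it was 135, 186 and 199 TPM in NT and 257, 269 and 279 TPM in LEN tumors. In B16-F10 it was 1.05, 1.48 and 2.00 TPM in NT and 5.39, 7.56 and 10.7 TPM in LEN tumors. In Hepa 1-6 the LEN tumors lay close together at 15.4, 15.6 and 15.9 TPM, above NT tumors at 2.40, 4.23 and 8.42 TPM. The 2 models with a lower mean were 4T1 and CT26.WT, and both had overlapping groups.

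Timp1, which inhibits most soluble metalloproteinases and also acts as a cytokine, had a higher mean log2 value in LEN tumors in 10 of 12 models. Its LEN tumors were all above the NT tumors in 6, BNL 1ME A.7R.1, EMT6, Renca, B16-F10, MBT2 and Hepa 1-6. In EMT6 it was 106, 122 and 124 TPM in NT and 198, 202 and 218 TPM in LEN tumors. In B16-F10 it was 16.9, 17.7 and 20.9 TPM in NT and 43.7, 55.2 and 66.5 TPM in LEN tumors. In CT26.WT, the model with the most Timp1, NT tumors had 221, 277 and 295 TPM and LEN tumors 292, 300 and 310 TPM, which overlap. The mean log2 value was lower in LEN tumors in KLN205 (-0.29) and RAG, and the groups overlap in both.

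**Figure D4:**
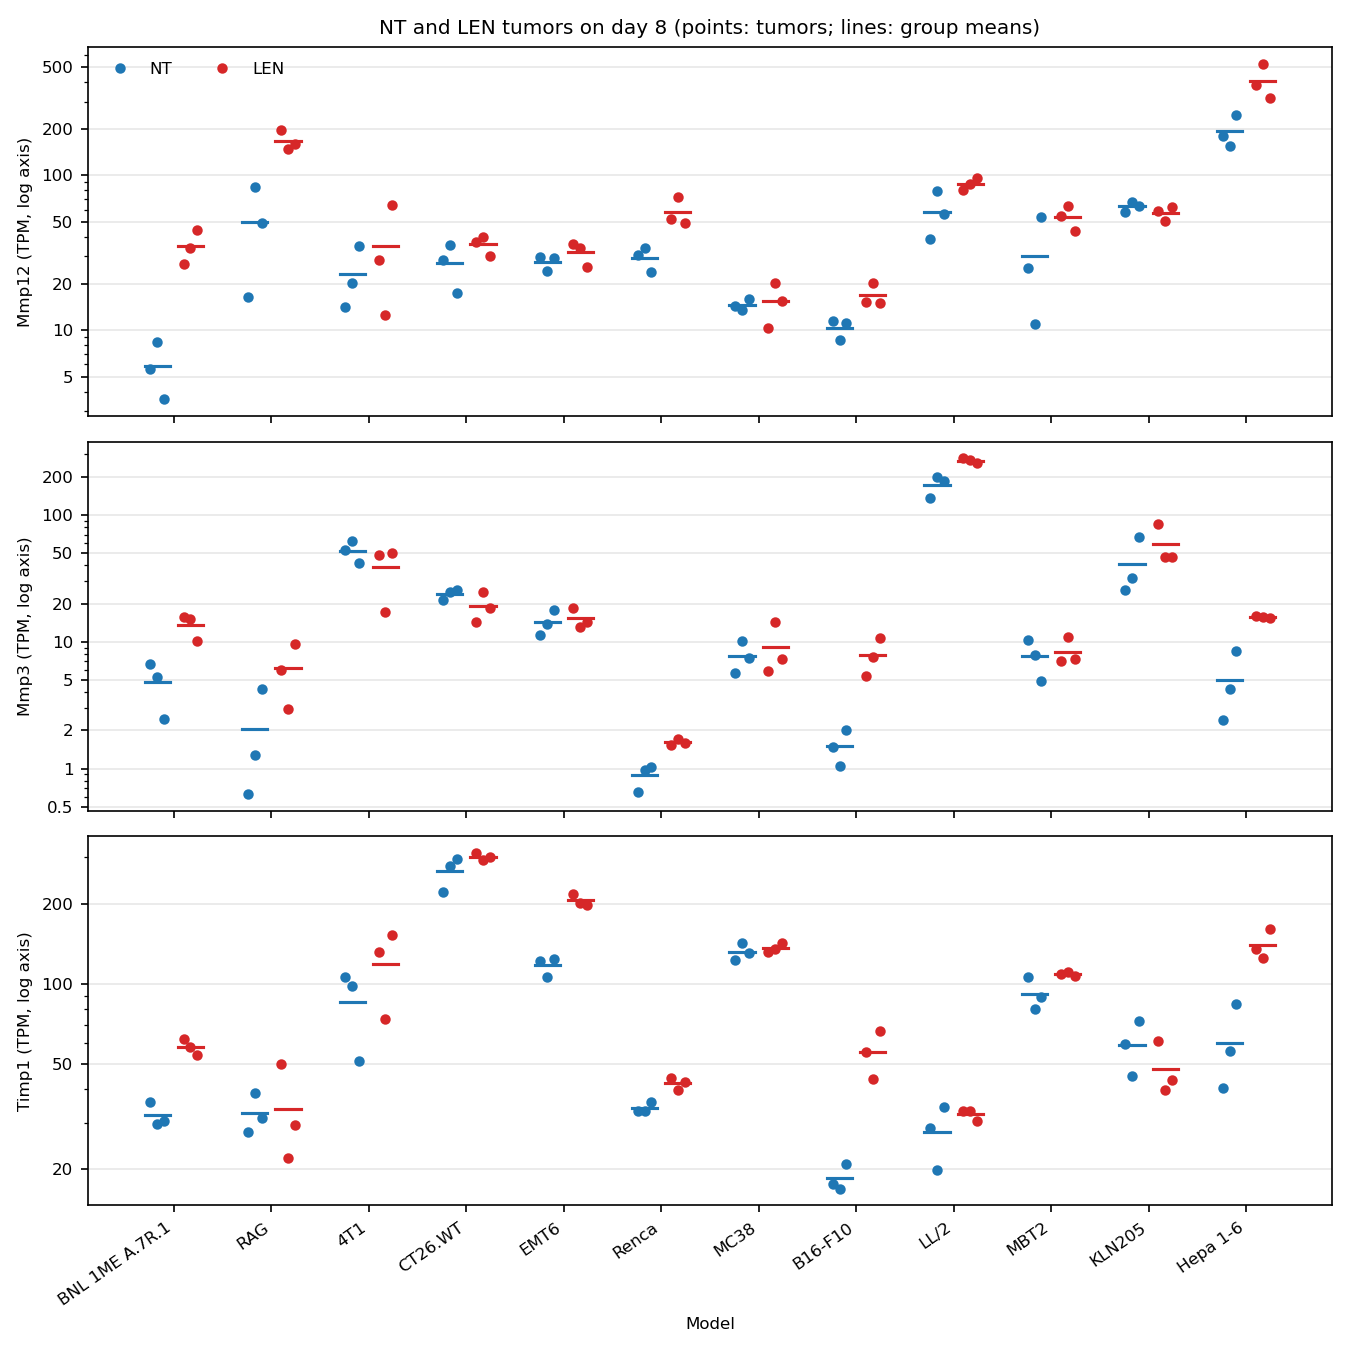
TPM (y axis, log scale) of Mmp12, Mmp3 and Timp1 (panels from top to bottom) in NT (blue) and LEN (red) tumors of 12 models (x axis, n = 3 each); points are tumors and lines are group means. LEN tumors lie wholly above NT tumors in 6 models for Mmp12, 5 for Mmp3 and 6 for Timp1.

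Promoter sequences are shown for the 3 genes that rose and for Mmp13, the neighbor of Mmp12 that did not pass. They were taken from RefSeq windows on GRCm38.p6 that run from 250 bases before to 50 after a transcription start, and 8 of the 10 members had at least 1 window. Capitals mark TGANTCA, the letters bound by AP-1 (Fos and Jun dimers), and TATAAA, each searched on both strands. TGANTCA was found in 7.81% and TATAAA in 13.6% of 32851 windows of this length. No capitals of 1 motif overlap those of the other. All windows below are from the forward strand.
Mmp13, chr9:7272264-7272563: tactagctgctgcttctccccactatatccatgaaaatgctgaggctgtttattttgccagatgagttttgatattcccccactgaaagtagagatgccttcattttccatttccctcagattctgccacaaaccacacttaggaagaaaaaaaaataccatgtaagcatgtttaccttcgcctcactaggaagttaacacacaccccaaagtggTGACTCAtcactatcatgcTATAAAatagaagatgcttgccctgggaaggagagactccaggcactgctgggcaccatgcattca
Mmp12, chr9:7347124-7347423: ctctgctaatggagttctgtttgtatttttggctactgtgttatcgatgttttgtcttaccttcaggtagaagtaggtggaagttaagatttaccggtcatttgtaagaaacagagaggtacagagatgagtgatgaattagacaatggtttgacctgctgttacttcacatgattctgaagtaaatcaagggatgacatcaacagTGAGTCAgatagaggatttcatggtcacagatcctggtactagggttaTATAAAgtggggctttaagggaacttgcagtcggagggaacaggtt
Mmp3, chr9:7445572-7445871: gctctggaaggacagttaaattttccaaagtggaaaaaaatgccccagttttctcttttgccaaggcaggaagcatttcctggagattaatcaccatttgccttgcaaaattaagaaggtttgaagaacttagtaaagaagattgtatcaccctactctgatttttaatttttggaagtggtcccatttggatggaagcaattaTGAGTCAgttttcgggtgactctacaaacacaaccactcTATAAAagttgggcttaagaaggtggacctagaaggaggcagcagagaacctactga
Timp1, chrX:20869916-20870215: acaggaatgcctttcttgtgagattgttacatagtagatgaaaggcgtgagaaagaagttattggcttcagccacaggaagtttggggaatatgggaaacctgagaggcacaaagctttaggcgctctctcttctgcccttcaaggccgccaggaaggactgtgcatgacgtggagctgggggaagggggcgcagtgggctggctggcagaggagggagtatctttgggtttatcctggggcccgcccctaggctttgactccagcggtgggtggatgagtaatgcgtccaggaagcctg

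TGANTCA begins 35 bases before the start of Mmp13, 44 before that of Mmp12 and 46 before that of Mmp3. The windows of these 3 neighboring genes were the only ones of the 9 member windows with these letters. A further start of Mmp12 has a window (chr9:7344147-7344446) without either motif. Timp1 has neither motif, which says only that these letters are not in this window. The windows of Mmp8, Mmp14, Timp2 and Timp3 have no TGANTCA.

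Genes around the protease system were read from lists of pathway members. Of the inducers of Mmp genes and the transcription factors that bind their promoters, 10 of 16 tested rose with LEN, none fell and 6 did not pass, with a list median of 0.23 beside -0.002 over all genes. The cytokine Il1b rose by 0.54 (adjusted p = 3.7e-04), the AP-1 subunits Fos by 0.48 (adjusted p = 3.3e-06) and Junb by 0.39 (adjusted p = 2.6e-10), and the glycoprotein Bsg, which induces Mmp genes in fibroblasts, by 0.37 (adjusted p = 1.7e-10). The others that rose were Tnf, Csf3, Osm, Fosl1, Jun and Runx2, and Il6 was under the minimum.

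Of the genes of plasminogen activation, 3 of 6 tested rose, 1 fell and 2 did not pass, with a median of 0.28. Serpinb2, an inhibitor of plasminogen activators, rose by 0.64 (adjusted p = 5.4e-05). The urokinase receptor Plaur rose by 0.45 (adjusted p = 8.0e-12), and Serpine2 fell by 0.35 (adjusted p = 5.2e-04). The urokinase Plau was at 0.07 (adjusted p = 0.33).

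Among the other matrix metalloproteinases, 2 of 9 tested rose and 1 fell, with a median of 0.10. Mmp25 and Mmp19 rose by 0.40 (adjusted p = 4.4e-06) and 0.28 (adjusted p = 0.0013), and the membrane-type Mmp15 fell by 0.28 (adjusted p = 4.1e-06). Of the other inhibitors and clearance receptors, Lrp1, which takes up proteases and their complexes, rose by 0.10 (adjusted p = 0.042), and Reck did not pass (-0.05, adjusted p = 0.42). Of the ADAM and ADAMTS proteases, 4 of 13 tested rose and 6 fell, with a median of 0.005. Adam8 rose by 0.84 (adjusted p = 2.6e-13), and Adamts12 fell by 0.38 (adjusted p = 2.0e-07), Adam12 by 0.27 (adjusted p = 0.0081) and Adamts2 by 0.25 (adjusted p = 0.0022).

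Among the matrix substrates, 3 of 13 tested rose and 5 fell, with a median of -0.09. The basement membrane chains Col4a2 and Col4a1 fell by 0.71 (adjusted p = 2.0e-14) and 0.69 (adjusted p = 5.2e-14). Elastin, Eln, a substrate of Mmp12, rose by 0.31 (adjusted p = 0.015), and Col1a1 fell by 0.29 (adjusted p = 0.023). The others that rose were Vcan and Col6a1, and the others that fell were Lamb1 and Lamc1.

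Cell type markers moved with LEN as well, and their part in the changes of the members was not tested. All 7 neutrophil markers tested rose, with sums between 1.25 and 163 TPM in NT and between 12.9 and 307 TPM in LEN tumors, and 8 of the 10 markers were at 0 in at least 1 tumor. Of 12 macrophage and monocyte markers 1 rose and 6 fell, with sums between 78.6 and 1779 TPM in NT and between 288 and 1640 TPM in LEN tumors, and no marker was at 0 in any tumor. Of 12 fibroblast markers 2 rose and 4 fell, with sums between 167 and 14098 TPM in NT and between 416 and 11570 TPM in LEN tumors. All 8 skeletal muscle markers rose, with sums between 2.97 and 175 TPM in NT and between 3.73 and 2553 TPM in LEN tumors. Of 9 endothelial markers tested, 9 fell, and of 8 epithelial markers 5 rose. Of 8 T cell markers 7 rose, of 4 skin and adipocyte markers tested 2 rose, of 7 hepatocyte markers 1 rose, and none of the 8 melanocyte markers passed.

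The effect of LEN was not the same in all models. For 8 of 9 members the difference between LEN and NT differed between models by the F test of 11 contrasts, beside 35.3% of all genes tested. F was 7.29 for Mmp2 (adjusted p = 5.9e-06), 6.44 for Timp2 (adjusted p = 2.5e-05) and 5.55 for Timp1 (adjusted p = 1.2e-04). It was 1.57 for Timp3 (adjusted p = 0.22), which did not pass. With a replicate block 4 members passed, namely Mmp3, Mmp14, Timp1 and Timp2, beside 10.7% of all genes. Without BNL 1ME A.7R.1 and B16-F10, the models where skeletal muscle markers rose most, 4 members passed, namely Mmp2, Mmp3, Mmp13 and Timp1, beside 11.9% of all genes in that fit. In the same 10 models Mmp12 still rose by 0.66 (adjusted p = 2.9e-04), Mmp3 by 0.41 (adjusted p = 0.014) and Timp1 by 0.33 (adjusted p = 0.00145).

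With each model fitted alone, 13 of 109 tests of a member in a model were called higher and 5 lower, beside 3.56% and 1.3% of all tests. The calls fell in BNL 1ME A.7R.1, B16-F10, Renca and EMT6. No member was called in the other 8 models, where few genes were called at all. The shares of all genes called higher and lower were 0.0261% and 0.00651% in RAG, 0.00637% and 0.00637% in 4T1, 0% and 0.00659% in CT26.WT, and 0.00628% and 0.0251% in MC38. They were 0.0709% and 0.0774% in LL/2, 0.0065% and 0.013% in MBT2, 0.0778% and 0.15% in KLN205, and 0.0423% and 0.0242% in Hepa 1-6.

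In B16-F10, 6 of 9 members were called higher, beside 8.57% of all genes tested, and none lower, beside 2.42%. Mmp2 had 3.55, 3.74 and 4.89 TPM in NT and 12.7, 13.4 and 13.8 TPM in LEN tumors, a rise of 1.51 ± 0.12 (adjusted p = 0.0019). Mmp9 had 1.14, 1.24 and 1.29 TPM in NT and 3.19, 3.62 and 6.53 TPM in LEN tumors, a rise of 1.24 ± 0.23 (adjusted p = 0.021). Mmp3 rose by 1.80 ± 0.25 (adjusted p = 0.0073), Timp1 by 1.51 ± 0.16 (adjusted p = 0.00355), Mmp12 by 0.64 ± 0.15 (adjusted p = 0.042) and Mmp14 by 0.28 ± 0.06 (adjusted p = 0.033). The calls of Mmp12 and Mmp14 were lost whenever 1 tumor was left out and in the within-model contrasts of the fit of all day 8 tumors (adjusted p = 0.407 and 0.258), and that of Mmp9 in 2 of 6 such fits. Marker sums of several cell types were higher in LEN than in NT tumors of B16-F10. Endothelial markers went the other way, with sums between 62.92 and 78.15 TPM in NT and between 35.3 and 44 TPM in LEN tumors. Fibroblast markers summed to between 167 and 193 TPM in NT and between 547 and 694 TPM in LEN tumors, macrophage and monocyte markers to between 78.6 and 123 and between 288 and 408 TPM, and skeletal muscle markers to between 2.97 and 25.8 and between 160 and 237 TPM. Their part in the rise of the members was not tested.

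In BNL 1ME A.7R.1, 5 members were called higher, beside 26.3% of all genes, and 3 lower, beside 5.21%. Mmp12 rose by 2.42 ± 0.28 (adjusted p = 0.0012), Mmp3 by 1.39 ± 0.31 (adjusted p = 0.015) and Timp1 by 0.84 ± 0.09 (adjusted p = 8.8e-04). Timp2 had 91.0, 94.1 and 104 TPM in NT and 175, 208 and 233 TPM in LEN tumors, a rise of 1.08 ± 0.11 (adjusted p = 7.1e-04). Mmp2 had 322, 339 and 365 TPM in NT and 224, 248 and 250 TPM in LEN tumors and fell by 0.50 on the log2 scale (adjusted p = 0.0025). Mmp9 had 92.0, 98.7 and 102 TPM in NT and 67.0, 73.1 and 77.5 TPM in LEN tumors and fell by 0.43 (adjusted p = 0.0058). Timp3 fell by 0.45 (adjusted p = 0.033) and Mmp14 rose by 0.24 (adjusted p = 0.023), and leaving out 1 tumor ended these calls in 4 and 3 of 6 fits. Under rescaling to the upper quartile Mmp14 was no longer called (0.04, adjusted p = 0.71). In the within-model contrasts of the fit of all day 8 tumors, none of the 3 falls passed, with adjusted p = 0.242 for Mmp2, 0.451 for Mmp9 and 0.254 for Timp3, nor did the rise of Mmp14 (adjusted p = 0.239). Skeletal muscle markers summed to between 43.1 and 132 TPM in NT and between 1783 and 2553 TPM in LEN tumors, and epithelial markers to between 18.1 and 46.1 and between 1071 and 1256 TPM. Fibroblast markers summed to between 12196 and 14098 TPM in NT and between 10630 and 11570 TPM in LEN tumors. The part of these tissues in the members' changes was not tested.

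In Renca, Mmp13 and Mmp14 fell while Mmp12 rose. Mmp13 had 10.1, 12.3 and 12.6 TPM in NT and 3.36, 3.91 and 4.70 TPM in LEN tumors and fell by 1.35 on the log2 scale (adjusted p = 0.0014). Mmp14 had 40.0, 41.6 and 46.8 TPM in NT and 21.0, 27.3 and 28.4 TPM in LEN tumors and fell by 0.73 (adjusted p = 0.013). Mmp12, the neighbor of Mmp13, rose by 0.96 ± 0.18 (adjusted p = 0.016), from 23.6, 30.4 and 33.9 TPM to 49.6, 52.5 and 72.4 TPM. Without NT tumor 5 of Renca the calls of Mmp12 (0.82, adjusted p = 0.0506) and Mmp14 (-0.66, adjusted p = 0.0547) were lost, and in the within-model contrasts of the fit of all day 8 tumors that of Mmp12 was lost (adjusted p = 0.14). In RAG, the other kidney model, both Mmp12 and Mmp13 were higher in every LEN tumor, with Mmp13 at 16.1, 23.9 and 33.5 TPM in NT and 44.96, 50.6 and 67.2 TPM in LEN tumors, which was not called in that model alone. In Renca, 1 member was called higher and 2 lower, beside 4.91% and 7.15% of all genes. Its macrophage and monocyte markers summed to between 866 and 973 TPM in NT and between 423 and 466 TPM in LEN tumors. Endothelial markers summed to between 92.9 and 116 TPM in NT and between 43.6 and 50.7 TPM in LEN tumors, while neutrophil markers summed to between 16.95 and 17.2 TPM in NT and between 36.2 and 46.1 TPM in LEN tumors. Their part in the change was not tested.

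In EMT6, Timp1 was the only member called (0.81 ± 0.09, adjusted p = 0.027), beside 0.819% of all genes called higher and 0.0968% lower, and leaving out 1 tumor ended the call in 5 of 6 fits. Mmp2 had 58.9, 65.7 and 71.7 TPM in NT and 101, 111 and 144 TPM in LEN tumors of EMT6, which do not overlap, and missed the threshold (0.84 ± 0.14, adjusted p = 0.054). In Hepa 1-6, Mmp2 had 10.6, 12.0 and 29.8 TPM in NT and 45.3, 57.8 and 67.5 TPM in LEN tumors (1.77 ± 0.37, adjusted p = 0.081), and it passed in the within-model contrasts of the fit of all day 8 tumors (adjusted p = 1.3e-04). Fibroblast markers of Hepa 1-6 summed to between 1660 and 2842 TPM in NT and between 2941 and 3446 TPM in LEN tumors, and neutrophil markers of EMT6 to between 124 and 163 TPM in NT and between 194 and 307 TPM in LEN tumors. Neither pair overlaps, and their part in the changes was not tested. The LEN effect on Mmp2 thus ranged from -0.66 to 1.77 over models. Every LEN tumor was above every NT tumor in EMT6, Renca, B16-F10 and Hepa 1-6 and below in LL/2 and BNL 1ME A.7R.1.

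The members that did not pass on average also had models where LEN and NT tumors did not overlap. Mmp13 was higher in every LEN tumor in RAG, LL/2, B16-F10 and Hepa 1-6 and lower in Renca. Mmp14 was higher in BNL 1ME A.7R.1, B16-F10 and Hepa 1-6 and lower in Renca and LL/2, where NT tumors had 219.7, 221.6 and 240.3 TPM and LEN tumors 176.6, 179 and 180.35 TPM. Timp2 was higher in BNL 1ME A.7R.1 and EMT6 and lower in LL/2, with 174, 209.6 and 214 TPM in NT and 243, 256 and 258 TPM in LEN tumors of EMT6. Timp3 was higher in B16-F10 and Hepa 1-6 and lower in BNL 1ME A.7R.1. Mmp8 was higher in Renca and LL/2, and in LL/2 it had 0.30, 0.32 and 0.41 TPM in NT and 1.18, 1.60 and 1.65 TPM in LEN tumors. Neutrophil markers moved with it, with sums between 21.7 and 51.2 TPM in NT and between 185 and 212 TPM in LEN tumors of LL/2, and their part in the change was not tested. Mmp2 was higher in EMT6, Renca, B16-F10 and Hepa 1-6 and lower in BNL 1ME A.7R.1 and LL/2, and Mmp9 was higher in Renca, B16-F10 and Hepa 1-6 and lower in BNL 1ME A.7R.1. Each gene thus had models on one or both sides, beside the shares of 13.5% and 10.9% given for all genes.

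Over the 12 models, the LEN effect on Timp1 and Mmp2 followed that on fibroblast markers (r = 0.80 and 0.77, n = 12 models). Without B16-F10 and Hepa 1-6, the models whose marker change was farthest from the median over models, r was 0.30 and 0.27, so both relations rest on these models. For Mmp12 the r with fibroblast markers was 0.03. With macrophage and monocyte markers, r was 0.84 for Timp1, 0.74 for Mmp14, 0.67 for Mmp2 and 0.17 for Mmp12. Without B16-F10 and Hepa 1-6 it was 0.58, 0.71, 0.11 and 0.38. These values share the NT tumors within each model and are descriptions.

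The balance of proteases to inhibitors moved in both directions. The ratio of the sums was higher in every LEN than in every NT tumor in RAG, Renca, LL/2 and MBT2. In RAG its mean was 0.660 in NT and 1.55 in LEN tumors, and in LL/2 2.55 and 3.45. It was lower in every LEN tumor in BNL 1ME A.7R.1, with means of 3.81 and 2.17, and in EMT6, with 1.198 and 0.853. In the other 6 models the groups overlapped. The sums were not tested.

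Comparing day 8 NT tumors with Base tumors shows how untreated tumors differed after 7 more days. The groups are separate tumors, and time, host age and tumor size move together between them. These NT tumors are the same as those in the LEN comparison, so opposite signs in the comparisons do not support each other. Averaged over models, Timp1 fell by 0.30 (SE 0.06, n = 36 against 35 tumors, adjusted p = 2.1e-04) and Timp3 by 0.27 (SE 0.08, adjusted p = 0.0093), while Mmp13 rose by 0.34 ± 0.11 (adjusted p = 0.017; limma with Benjamini-Hochberg adjustment). These were 2 lower and 1 higher of 9 members tested, beside 11.5% lower and 17% higher of 17428 genes. The others did not pass, with Mmp12 at -0.22 (adjusted p = 0.20), Mmp3 at -0.15 (adjusted p = 0.40) and Timp2 at 0.07 (adjusted p = 0.11). Without MC38, Mmp12 was called lower (-0.38, adjusted p = 0.0334) and Timp2 higher (0.09, adjusted p = 0.0409). None of the 3 calls held when BNL 1ME A.7R.1, B16-F10 and Renca were left out together, with Timp1 at -0.17 (adjusted p = 0.10), Timp3 at -0.16 (adjusted p = 0.26) and Mmp13 at 0.21 (adjusted p = 0.27). With a replicate block Timp1 kept its call, while Mmp13 (adjusted p = 0.215) and Timp3 (adjusted p = 0.113) lost theirs.

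Timp1 had a lower mean in NT than in Base tumors in 11 of 12 models, and all NT tumors were below all Base tumors in 4, namely BNL 1ME A.7R.1, Renca, B16-F10 and Hepa 1-6. Over all genes and models 13.9% of pairs had every NT tumor below every Base tumor and 17.1% above. In Hepa 1-6 Timp1 was 100, 108 and 133 TPM in Base and 40.7, 55.6 and 83.8 TPM in NT tumors. KLN205 went the other way, from 26.4, 32.5 and 42.4 TPM to 45.03, 59.2 and 72.4 TPM. Timp3 changed most in Renca, from 22.7, 24.5 and 27.9 TPM in Base to 6.30, 6.45 and 8.65 TPM in NT tumors, and without Renca its mean change was -0.14 (adjusted p = 0.24). Mmp13 changed most in BNL 1ME A.7R.1, from 5.20, 7.34 and 7.61 TPM to 14.9, 30.7 and 34.6 TPM, and without that model its mean change was 0.21 (adjusted p = 0.18). The call of Mmp13 was also lost without EMT6 (0.27, adjusted p = 0.098) or MC38 (0.24, adjusted p = 0.13), and that of Timp3 without EMT6 (-0.20, adjusted p = 0.066). In Hepa 1-6, Mmp13 went from 105, 128 and 186 TPM to 56.1, 58.4 and 63.6 TPM, and Mmp12 from 556, 674 and 825 TPM to 154, 181 and 244 TPM. Neither pair of groups overlaps. Macrophage and monocyte markers of Hepa 1-6 summed to between 1076 and 1554 TPM in Base and between 490 and 876 TPM in NT tumors, and their part in these changes was not tested.

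**Figure D5:**
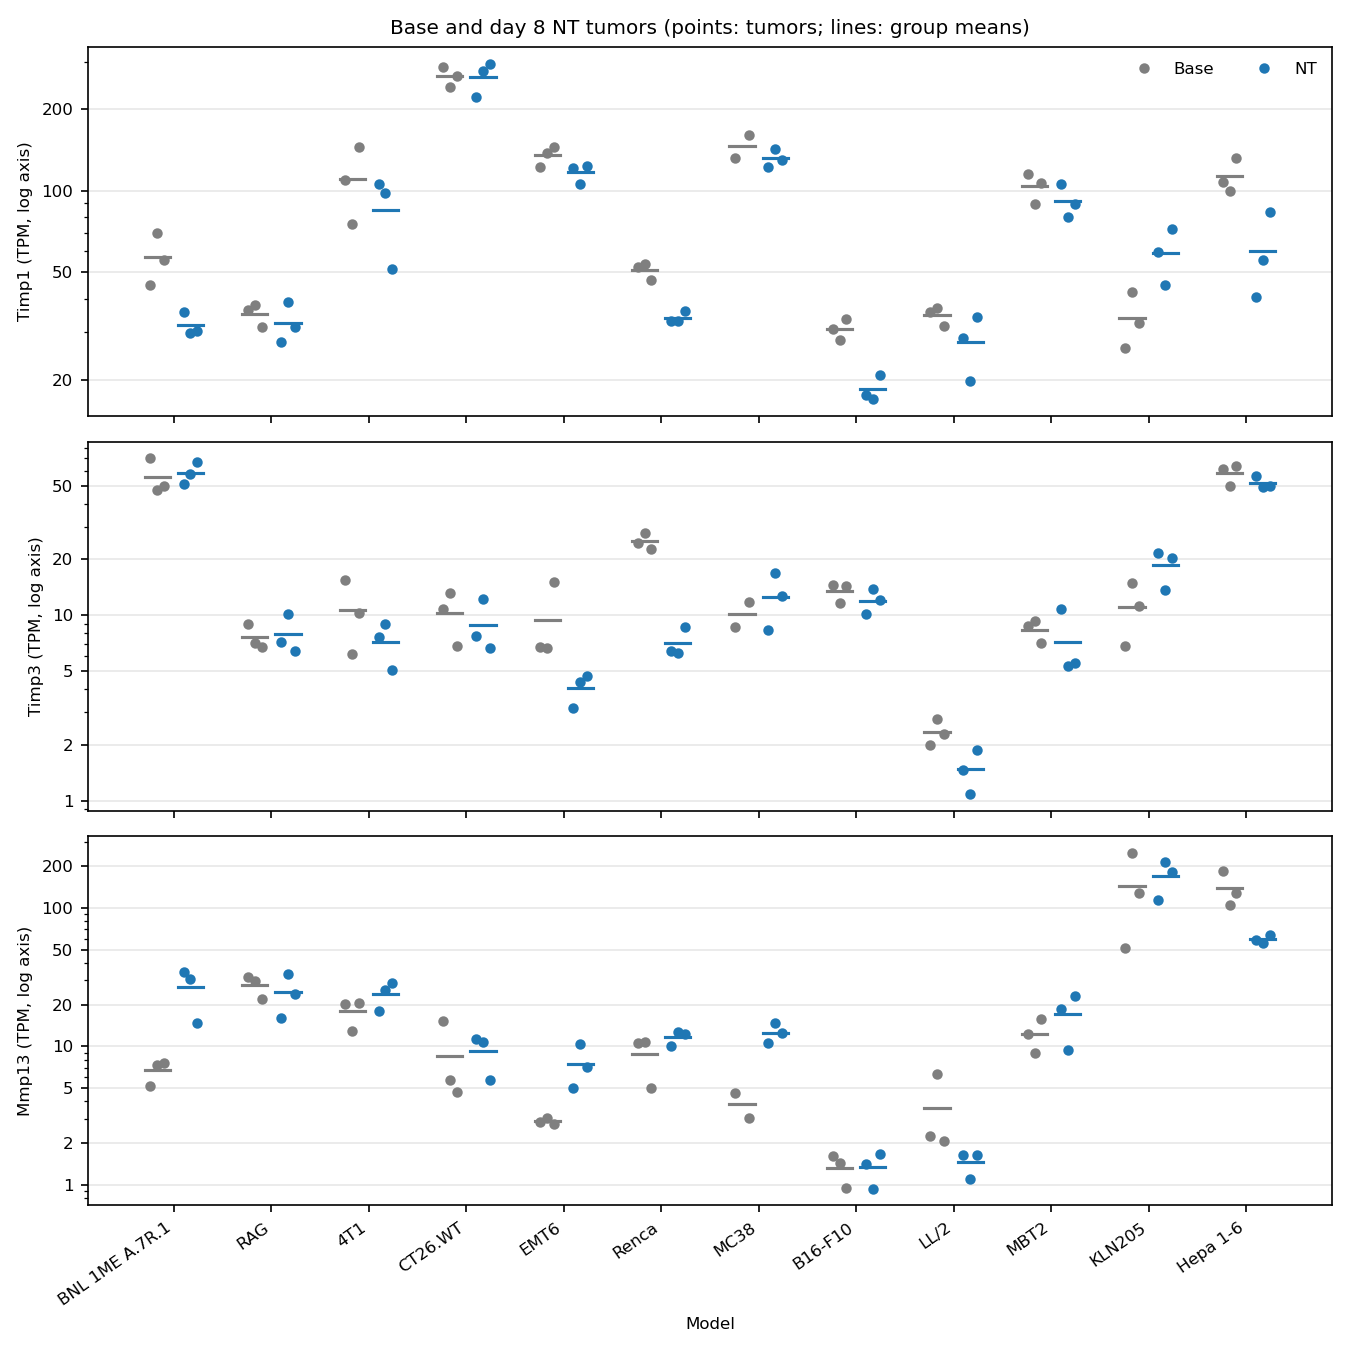
TPM (y axis, log scale) of Timp1, Timp3 and Mmp13 (panels from top to bottom) in Base (grey) and day 8 NT (blue) tumors of 12 models (x axis, n = 3 each, n = 2 for MC38 Base); points are tumors and lines are group means. NT tumors lie wholly below Base tumors in 4 models for Timp1 and 3 for Timp3, and wholly above in 3 for Mmp13. On the other side, they lie wholly above in 1 model for Timp1 and wholly below in 2 for Mmp13.

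Between Base and NT all 8 skeletal muscle markers fell, with sums between 5.45 and 721 TPM in Base and between 2.97 and 175 TPM in NT tumors. Averaged over models, 4 of 12 fibroblast markers fell, as did 6 of 12 macrophage and monocyte markers and 3 of 6 neutrophil markers tested. The same held for 7 of 10 endothelial markers and 5 of 8 T cell markers, and no marker of these lists rose on average. Fibroblast marker sums were between 2020 and 2932 TPM in Base and between 663 and 1078 TPM in NT tumors of Renca, the model where Timp3 changed most. In BNL 1ME A.7R.1, where Mmp13 changed most, they were between 6364 and 6835 TPM in Base and between 12196 and 14098 TPM in NT tumors. Macrophage and monocyte marker sums of BNL 1ME A.7R.1 were between 386 and 623 TPM in Base and between 1101 and 1137 TPM in NT tumors. The part of these tissues and cell types in the changes of Timp1, Timp3 and Mmp13 was not tested. Of the other matrix metalloproteinases, 1 of 9 tested rose and 5 fell between Base and NT. Mmp10 rose by 0.26 (adjusted p = 0.026), and Mmp25 fell by 0.38 (adjusted p = 8.2e-05), Mmp19 by 0.20 (adjusted p = 0.037) and Mmp27 by 0.20 (adjusted p = 0.0034). Mmp15 and Mmp24 fell as well. Of the inducers, Bsg, Jun and Fosl1 rose and Tnf fell, of 16 tested. Of 13 matrix substrates tested, Lamb1 and Lamc1 rose and Col3a1 and Col6a1 fell. Of the genes of plasminogen activation 2 of 6 rose and 2 fell. Serpinb2 fell by 0.45 (adjusted p = 0.013) and Plaur by 0.13 (adjusted p = 0.013), and Plat and Plau rose. Of 14 ADAM and ADAMTS proteases tested, Adam9, Adam10, Adam17, Adamts1 and Adamts4 rose and Adam8, Adamts2 and Adamts15 fell. Of the clearance genes neither Reck nor Lrp1 passed.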

How the data were processed

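RNA from 35 Base, 36 NT and 36 LEN mouse tumors was measured by RNA-seq after depletion of ribosomal RNA. The authors trimmed reads with Trimmomatic 0.36, mapped them with STAR 2.5.2b to Ensembl release 88 annotation and estimated expression with RSEM 1.2.31, as the methods and the submitters' processing notes state, and deposited TPM for each gene and tumor. The methods name NovaSeq and NextSeq sequencers for mouse and human tumors, and which tumors ran on which is not given in the sources used here. Whether Base, NT and LEN tumors differ in sequencer is thus unknown. The table had 0 value columns that match no sample, and its depth is unknown. Gene positions came from a GENCODE annotation of GRCm38 and promoters from RefSeq on GRCm38.p6.

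Values were analyzed as log2(TPM + 1) by limma 3.58.1 in R 4.3.3 (trend in the empirical Bayes step), keeping genes whose mean in the fitted tumors reached 1 TPM. All 24 day 8 groups were fitted together for the mean LEN effect and the F test, each model alone for effects within it, Base and NT tumors of all models together for the change to day 8, and Base tumors alone for differences between models. P-values were adjusted by Benjamini-Hochberg over all genes tested, with a threshold of 0.05. Values per tumor, ranges and correlations were computed with Python 3.11.15, numpy 2.4.6 and pandas 2.3.3, and plots drawn with matplotlib 3.10.9. An exact permutation test of 3 against 3 tumors cannot go below 0.1 and was not used. The genes named were the 10 members, up to 4 genes per pathway list with the largest mean LEN effect among those that passed, and the 3 genes most like each member; pathway genes beyond these were chosen after their values were seen. Some genes that this rule names are not reported here. The members and lists were chosen with earlier results of these data known. The scripts were tested on simulated data. There the mean over models recovered 91.67% of changes of 1 and 91.35% of changes of 0.5 on the log2 scale. The fit of 1 model alone recovered 35.4% and 0.96%, so a missing call within a model does not show a missing change. The fits were repeated with 0.1 as pseudocount, with the minimum dropped or raised to 5 TPM, after rescaling to the upper quartile or over protein-coding genes, without the trend, with a replicate block, and without each tumor or model. Fits without several models at once were chosen after seeing the data.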

Additional observations from a re-analysis of the deposited data

Results flagged for a closer look

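The difference between LEN and NT tumors varied between the 12 models for 8 of the 9 members tested, by the limma F test over 11 contrasts with Benjamini-Hochberg adjustment, beside 35.3% of all genes. Among the proteases F was 7.29 for Mmp2 (adjusted p = 5.9e-06), 4.18 for Mmp3 (adjusted p = 0.00159), 3.89 for Mmp14 (adjusted p = 0.00276), 3.66 for Mmp13 (adjusted p = 0.00429), 3.61 for Mmp12 (adjusted p = 0.00476) and 3.18 for Mmp9 (adjusted p = 0.0111). Among the inhibitors it was 6.44 for Timp2 (adjusted p = 2.5e-05) and 5.55 for Timp1 (adjusted p = 0.00012). Without BNL 1ME A.7R.1 and B16-F10, a choice made after seeing the data, 4 of these calls were lost and 11.9% of all genes passed, with adjusted p = 0.135 for Mmp9, 0.141 for Mmp12, 0.0614 for Mmp14 and 0.1004 for Timp2. With a replicate block and all 12 models, 10.7% of all genes passed. The calls lost there were those of Mmp2 (adjusted p = 0.0631), Mmp9 (adjusted p = 0.297), Mmp12 (adjusted p = 0.0607) and Mmp13 (adjusted p = 0.134). The change ranged over models from -0.66 to 1.77 for Mmp2, from -0.14 to 2.42 for Mmp12 and from -0.31 to 1.08 for Timp2, on the log2(TPM + 1) scale.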

How the results depend on the processing

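The rise of Mmp12, Mmp3 and Timp1 with LEN held under every alternative run for the mean over models. When 1 tumor was left out, 3 to 4 members were called higher and 0 lower, 8 differed between models, 1 to 2 were higher and 2 lower between Base and NT, 9 differed between models in Base tumors, and within models 10 to 16 were higher and 4 to 6 lower. Upper-quartile rescaling called 1 member lower with LEN, Mmp14, beside 18.3% of all genes. The number of members whose LEN effect differed between models was 4 without BNL 1ME A.7R.1 and B16-F10, a choice made after seeing the data. In the within-model contrasts of the fit of all day 8 tumors, 2 members were lower in place of 5, Mmp13 and Mmp14 in Renca. Between Base and NT, the members higher were 0 without BNL 1ME A.7R.1, 2 without CT26.WT (Mmp13 and Timp2), 0 without EMT6, 3 without Renca (Mmp13, Mmp14 and Timp2) and 2 without KLN205 Base tumor 2. The members lower were 1 without EMT6 and 1 without Renca, Timp1 in both. In these fits between 11.2% and 22.3% of all genes were higher and between 8.7% and 12.3% lower. Without BNL 1ME A.7R.1, B16-F10 and Renca together, also chosen after seeing the data, 0 were higher and 0 lower. The cause of these changes was not tested.

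Replicate numbers did not pair the tumors: correlations of same-numbered tumors' deviations ran from -0.143 to 0.179 over 20 NT and LEN pairs, 3 of them over 0.1, and from -0.294 to 0.174 over 25 Base and NT pairs, 5 of them over 0.1. With a replicate block, 3 members were higher with LEN, 4 differed between models (Mmp3, Mmp14, Timp1 and Timp2), and 0 were higher and 1 lower (Timp1) between Base and NT. Over all genes the block gave 2460 calls in place of 4083 for LEN, 1861 in place of 6122 for the F test and 1912 in place of 4973 between Base and NT. Without BNL 1ME A.7R.1 and B16-F10 there were 2507 for LEN and 2042 for the F test. The share of calls that were higher was 58.1% for LEN, 41.9% after upper-quartile and 47.8% after protein-coding rescaling, and 59.7%, 28.7% and 21.1% between Base and NT. Of 2968 repeated values of single genes, 2893 kept their side of the threshold, 65 lost it and 10 gained it, and no called value changed direction. Within models only calls of the main fit were counted, so no gain within a model could enter. Mmp8, which has no main value over models, is not in this tally. Depth is unknown, so counting error of low genes such as Mmp8 cannot be given.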
